A study of Mus musculus with 20 samples.

Results

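The immunoglobulin heavy, kappa and lambda loci were examined by comparative genomic hybridisation in 20 malignant mesotheliomas of mice. They were taken as all non-control probes in chr12:114413746-117285162 (heavy, 177 probes), chr6:67444505-70710392 (kappa, 142 probes) and chr16:18989503-19653078 (lambda, 46 probes) of mouse build mm9. The median length of a probe on the array was 60 bases. These 365 probes make up 0.214% of the 170305 probes of the array. All 365 were measured, 363 of them on every one of the 20 arrays. Every value below is a log2 ratio of tumour DNA over kidney DNA, set so that the median autosomal probe of each array is 0. A value above 0 means relatively more tumour signal.

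The loci encode antibodies. In a developing B cell the RAG recombinase cuts beside short heptamer and nonamer signal sequences. It joins V, D and J segments of the heavy locus, and the DNA between the joined segments is lost from the chromosome. In a light-chain locus it joins V and J segments, and the DNA between them can be lost but is not always. By this joining alone, a tissue with many rearranged B cells would have fewer copies of the D-J region than of the constant genes beside it. A loss of constant genes in the same cells would make that difference smaller. Such a tissue may also have fewer copies of DNA between the kappa V segments and the J segments. In bulk DNA, a small share of cells with a complete loss and a larger share with a partial loss cannot be told apart. The V regions also differ between mouse strains and individuals in their germline. A germline difference shared by the tumour and the kidney DNA of an array would move both channels and leave the ratio where it was. The comparison thus addresses B-cell DNA in the tumours and germline variation between the mice that gave the DNA.

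All mice received crocidolite, the fibrous amphibole asbestos, by intraperitoneal injection. They were given 1.5 mg at 6 weeks of age and again at 7 weeks, a total of 3 mg, and were followed for 600 to 700 days. The groups were 4 tumours labelled Wild type(Dmt1) (here WT_Dmt1), 3 further wild-type tumours without that suffix (WT_plain), 4 of Dmt1Tg mice (a transgene of the iron transporter Dmt1), and 3 each of MutyhKO, Ogg1KO and Mth1KO mice, which lack enzymes that repair or sanitise oxidised guanine. The promoter of the transgene, the sex of the mice and the cell types within a tumour are not given in the sources used here, nor is it stated that each tumour came from a different mouse. The p-values then measure only the spread between these tumours. Tumour DNA was in the Cy5 channel, and Cy3 held DNA of C57BL/6 non-neoplastic kidney labelled with the genotype of the tumour. The sources used here do not say whether the kidney and tumour DNA of an array came from the same mouse. DNA alone was measured, so the tumour label could not be checked against expressed markers.

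Each locus was divided by position into parts. The heavy constant part (25 probes, chr12:114413746-114664569) holds the constant genes, the heavy D-J part (11 probes, chr12:114670169-114795605) the diversity and joining segments, and the heavy V part (141 probes, chr12:114805313-117285162) the variable segments. The kappa V part has 136 probes (chr6:67444505-70657002), and the J-C end of the kappa locus has 6 (chr6:70665024-70710392). The lambda immunoglobulin genes have 17 probes (chr16:18989503-19258574). The other 29 lambda probes (chr16:19268468-19653078) lie beyond the last probe that the array names as an immunoglobulin gene and are called the olfactory receptor part. The borders of the heavy and kappa parts rest on general knowledge of the mm9 map, since no mm9 annotation was used here.

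The probe sequences below show examples of the parts compared, probes that hold the heptamer, and probes at the extremes. The first set are the heavy D-J probes whose kidney signal was well above background on all 20 arrays, all in lower case because no letters are singled out. Orientation relative to the mm9 strands was not determined.
A_67_P02611198: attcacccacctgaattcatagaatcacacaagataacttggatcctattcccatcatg
A_67_P07756998: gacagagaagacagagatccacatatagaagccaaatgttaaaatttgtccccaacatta
A_67_P02611246: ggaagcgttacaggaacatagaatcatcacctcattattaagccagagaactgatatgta
A_67_P02611253: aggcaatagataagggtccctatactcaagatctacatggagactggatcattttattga

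The next set are 3 of the 6 probes of the kappa J-C end, which include the last probe of the locus (A_67_P05934611).
A_67_P05934539: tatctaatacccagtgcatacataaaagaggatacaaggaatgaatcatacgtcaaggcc
A_67_P14177887: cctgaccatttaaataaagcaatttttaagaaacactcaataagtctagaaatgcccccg
A_67_P05934611: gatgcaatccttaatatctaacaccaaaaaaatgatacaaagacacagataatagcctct

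The recombination heptamer CACAGTG, or its reverse complement CACTGTG, was found in 4 of the 365 probes (1.1%), against 0.83% of all 170305 probes. Capitals mark it in these 4, of which 2 lie in the kappa V part, 1 in the heavy constant part and 1 in the heavy V part. The nonamer ACAAAAACC, or GGTTTTTGT on the other strand, was in none of the 365 and in 0.0951% of all probes. A match of these letters is a description and not a recombination site.
A_67_P05933492: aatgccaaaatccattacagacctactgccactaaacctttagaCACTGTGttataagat
A_67_P01351291: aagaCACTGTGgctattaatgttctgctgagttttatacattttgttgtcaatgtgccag
A_67_P18178609: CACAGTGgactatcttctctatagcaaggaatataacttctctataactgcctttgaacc
A_67_P18183769: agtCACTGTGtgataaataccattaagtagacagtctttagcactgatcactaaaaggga

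The last set shows, for each locus, whichever of its lowest and highest probe was dimmer in kidney, with G and C in capitals. The heavy probe with the highest mean ratio (A_67_P07757472, 1.08 over the 20 tumours, 35% GC) had a kidney signal of -3.32 (log2, relative to the autosomal median) and was well above background in kidney on 1 array. The kappa probe with the lowest mean (A_67_P01351051, -1.34, 25% GC) was at -2.92 in kidney and well above background on none. The lambda probe with the highest mean (A_67_P19925232, 0.89, 33.3% GC) was at -2.98 and well above background on 1 array. The opposite extremes, not printed, were brighter in kidney. The lowest heavy probe (A_67_P07757117) was at -0.52 and well above background on 17 arrays. The highest kappa probe (A_67_P01350405) was at -2.53 (7 arrays) and the lowest lambda probe (A_67_P03143268) at -0.62 (19 arrays).
A_67_P07757472: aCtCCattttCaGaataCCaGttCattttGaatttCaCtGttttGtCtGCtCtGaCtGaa
A_67_P01351051: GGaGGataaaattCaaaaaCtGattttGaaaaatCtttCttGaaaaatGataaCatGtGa
A_67_P19925232: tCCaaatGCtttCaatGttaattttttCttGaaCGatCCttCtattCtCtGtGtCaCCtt

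Probes of the loci were dimmer than the rest. Kidney signal was well above background on every array for 53.1% of heavy, 42.3% of kappa and 39.1% of lambda probes, against 59.6% of autosomal probes. Median GC content was 36.7% in each locus, as on the autosomes. The arrays came from 5 slides scanned on 2 days: WT_Dmt1 and Dmt1Tg on scan day 1 (8 tumours) and all others on scan day 2 (12 tumours). The arrays of WT_plain 1 and WT_plain 2 had patches of neighbouring spots with shifted ratios, over 8.12% and 5.15% of their spots. In these patches lay 12 and 6 heavy, 8 and 6 kappa, and 4 and 3 lambda probes, with ratios as low as -4.73. Values include the patch spots unless stated, and values without them follow where they differ.

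All 3 loci had a mean ratio above 0 in each of the 20 tumours. The heavy locus averaged 0.13 ± 0.065 (SD, n = 20), from 0.045 in WT_plain 1 to 0.27 in WT_Dmt1 1. Without patch spots WT_plain 1 was at 0.19, and the lowest heavy value was 0.047 in Dmt1Tg 2. The kappa locus averaged 0.14 ± 0.059, from 0.038 in Dmt1Tg 2 to 0.24 in Ogg1KO 2. The lambda locus averaged 0.18 ± 0.081, from 0.055 in WT_Dmt1 4 to 0.37 in Ogg1KO 2. The means without patch spots were 0.14 ± 0.061, 0.15 ± 0.059 and 0.19 ± 0.085. Of the probes, 72.3% of heavy, 74.6% of kappa and 78.3% of lambda had a mean above 0 over the tumours, compared with 52.5% of autosomal probes.

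**Figure D1:**
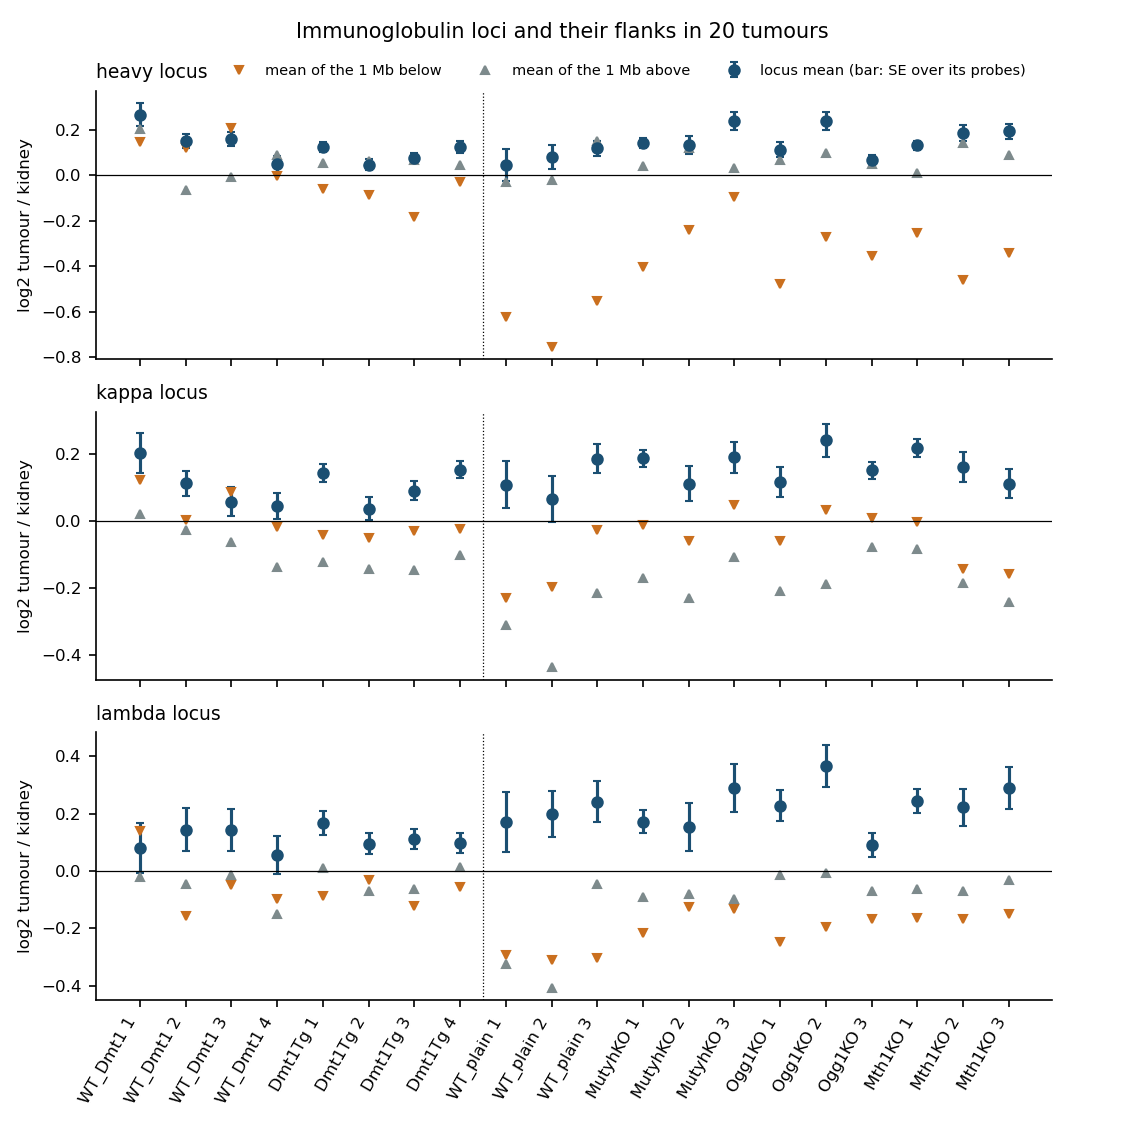
Mean log2 ratio of tumour over kidney (vertical axis) of each locus in each tumour (horizontal axis), with the SE over its probes, and of the 1 Mb below and above the locus. The dotted line divides scan day 1 (left) from scan day 2 (right). Locus means lie above 0 in all 20 tumours, and the 1 Mb below the heavy locus is lower on scan day 2.

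The DNA beside the loci was lower. The 1 Mb on the low-coordinate side of the heavy locus averaged -0.24 ± 0.26 and the 1 Mb on the high side 0.059 ± 0.066 (SD, n = 20). For kappa these flanks averaged -0.037 ± 0.089 and -0.16 ± 0.10, and for lambda -0.15 ± 0.11 and -0.082 ± 0.11. Leaving out patch spots moved the low heavy flank to -0.21 ± 0.23 and the high lambda flank to -0.054 ± 0.043. The locus minus its flanks was 0.20 ± 0.11 for heavy, 0.24 ± 0.093 for kappa and 0.29 ± 0.14 for lambda, above 0 in 20 of 20 tumours each (p = 2e-05 each by sign-change permutation, and 3.33e-05 adjusted over 5 tests). Without patch spots these were 0.20 ± 0.10, 0.23 ± 0.084 and 0.29 ± 0.13, above 0 in 20 of 20 tumours each. With normexp background correction the differences were 0.096, 0.068 and 0.11. Against the high flank alone the heavy difference was 0.074 ± 0.073, above 0 in 17 of 20 tumours.

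The size of the difference from the flanks followed the scan day. On scan day 1 it was 0.088 ± 0.045 for heavy, 0.15 ± 0.058 for kappa and 0.16 ± 0.071 for lambda (SD, n = 8). On scan day 2 it was 0.28 ± 0.065, 0.30 ± 0.060 and 0.38 ± 0.095 (SD, n = 12). The heavy values did not overlap between the days, with 0.13 the highest on day 1 and 0.17 the lowest on day 2. The kappa and lambda values overlapped. All 3 differences between days passed an exact permutation test (adjusted p = 0.000127 for heavy, 0.000254 for kappa and 0.000127 for lambda over 8 tests). Without patch spots the values on scan day 2 were 0.27 ± 0.049, 0.29 ± 0.046 and 0.37 ± 0.077, and all 3 differences between days passed again (adjusted p at most 0.000159, exact permutation). The locus means themselves moved less: by 0.015 for heavy (adjusted p = 0.62, exact permutation), 0.048 for kappa (0.094) and 0.11 for lambda (0.00117). Among wild types alone, which lie on both days, the heavy difference from the flanks was 0.074 ± 0.055 in the 4 WT_Dmt1 and 0.34 ± 0.073 in the 3 WT_plain tumours (p = 0.057 by exact permutation, the smallest that 4 against 3 allow), and 0.31 ± 0.036 in WT_plain without patch spots. The 1 Mb below the heavy locus ran from -0.19 to 0.21 on scan day 1 and from -0.75 to -0.094 on scan day 2, with -0.55 the lowest without patch spots. The SD of all autosomal bins also had a median of 0.198 on day 1 and 0.292 on day 2. The part of array noise in the result was not tested, and genotype and scan day cannot be told apart for Dmt1Tg against the knockouts.

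Along the loci, ratios were taken in 100-kb bins with at least 3 probes, of which 23 lay in the heavy, 24 in the kappa and 6 in the lambda locus. The 53 bins in 20 tumours give 1060 values. Of these, 36.7% were at or above 0.2, against 21.02% over all autosomal bins, and 4.06% were at or below -0.2, against 18.8%. The low values numbered 43, of which 23 were heavy, 20 kappa and 0 lambda. WT_plain 1 held 12 of the 43. Without patch spots there were 26 low values, at most 5 in a tumour (WT_Dmt1 4). The share of low bins was below the share of all bins in each of the 20 tumours.

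**Figure D2:**
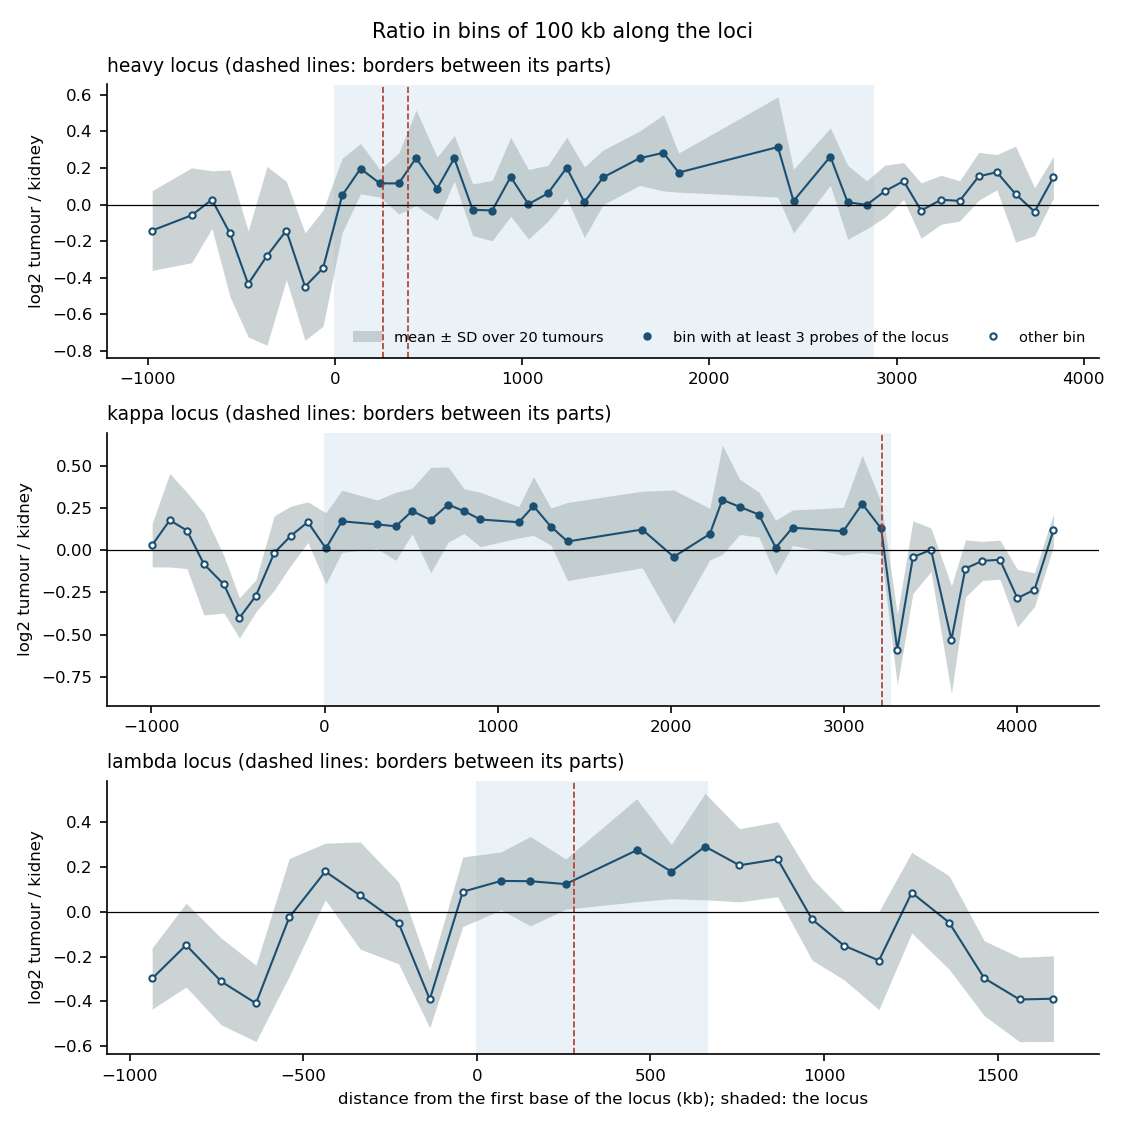
Mean log2 ratio over the 20 tumours (vertical axis; band, SD) in bins of 100 kb against distance from the first base of the locus in kilobases (horizontal axis), with the locus shaded and dashed borders between its parts. Bins inside the loci lie near or above 0, and the ratio falls below 0 at the low edge of heavy and the high edge of kappa.

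The highest heavy bin lay among V segments (chr12:116769174-116789249, 3 probes) at 0.31 ± 0.27, from -0.11 in WT_Dmt1 3 to 0.78 in Mth1KO 3. The lowest heavy bins, also in the V part, were at -0.033 ± 0.16 (chr12:115207805-115298715), -0.028 ± 0.14 (chr12:115118050-115179436) and -0.0018 ± 0.13 (chr12:117213388-117293605, in part above the locus). None of these lowest heavy means lay further from 0 than the SD between tumours. The highest kappa bin (chr6:69706250-69780067, 4 probes) was at 0.30 ± 0.32 and the lowest (chr6:69429383-69495382, 5 probes) at -0.040 ± 0.40. That lowest kappa bin had the widest range of the locus: it was -1.23 in WT_plain 1 and -1.02 in WT_plain 2, and 0.13 and -0.30 there without patch spots, where its mean was 0.064 ± 0.16. Without patch spots the highest bins were others: the heavy bin from 114805313 at 0.32 ± 0.18 (0.25 with them) and the kappa bin from 68131515 at 0.34 ± 0.16 (0.27 with them). In lambda the highest bin (chr16:19603020-19690916, 8 probes, in part above the locus) was at 0.29 ± 0.24 and the lowest (chr16:19201112-19289417, 8 probes) at 0.12 ± 0.11. The median range over tumours was 0.663 for heavy, 0.667 for kappa and 0.621 for lambda bins, against 0.645 for all autosomal bins, and 0.561, 0.622 and 0.621 against 0.576 without patch spots.

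The joining of heavy segments in B cells removes DNA between the joined segments, some of it in the D-J part. By itself it leaves the constant genes in place. The D-J part averaged 0.15 ± 0.14 (SD, n = 20) and was above 0 in 18 tumours, from -0.062 in Ogg1KO 3 to 0.59 in WT_Dmt1 1. The constant part averaged 0.12 ± 0.11 and the V part 0.14 ± 0.066. The D-J part minus the constant part was 0.027 ± 0.19, above 0 in 12 and below 0 in 8 tumours (adjusted p = 0.55, sign-change permutation), and 0.018 ± 0.18 without patch spots (adjusted p = 0.66). No mean deficit of D-J DNA relative to the constant part was detected at this precision. Of the 11 D-J probes, 4 (36.4%) had kidney signal well above background on all arrays. With normexp correction the difference was -0.13 and lay below 0 in 16 of 20 tumours (adjusted p = 0.0011), and over well-measured probes alone it was -0.040 (adjusted p = 0.18). On scan day 2 alone it was -0.022. The cause of these changes of sign was not tested. The 4 D-J probes printed above had means of -0.035, 0.23, 0.17 and 0.018 in the order shown.

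By genotype, the D-J minus constant difference was 0.19 ± 0.18 in the 7 wild types (lowest 0.016 in WT_Dmt1 3, median 0.12, highest 0.47 in WT_Dmt1 1), so that all 7 lay above 0. In Dmt1Tg the 4 values were -0.082, 0.019, 0.068 and 0.015. In MutyhKO they were 0.064, -0.26 and -0.16, and in Ogg1KO -0.22, 0.21 and -0.078. In Mth1KO they were -0.054, -0.012 and -0.28, so that all 3 fell below every wild type. The differences from wild type were -0.18 (p = 0.036), -0.31 (p = 0.05), -0.22 (p = 0.15) and -0.30 (p = 0.017, the smallest possible for 3 against 7) by exact permutation, and none passed after adjustment over the 8 part contrasts (0.13, 0.13, 0.30 and 0.13). Against only those wild types that share the scan day the differences were -0.19, -0.30, -0.21 and -0.29 with an adjusted p of at least 0.229 (exact permutation). Sets this small allow no p under 0.1 (3 against 3) or 0.029 (4 against 4), so none of these differences could pass after adjustment. Leaving out patch spots as well gave -0.24, -0.15 and -0.24 for the knockouts. With normexp they shrank to -0.021, -0.068, 0.015 and -0.11.

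**Figure D3:**
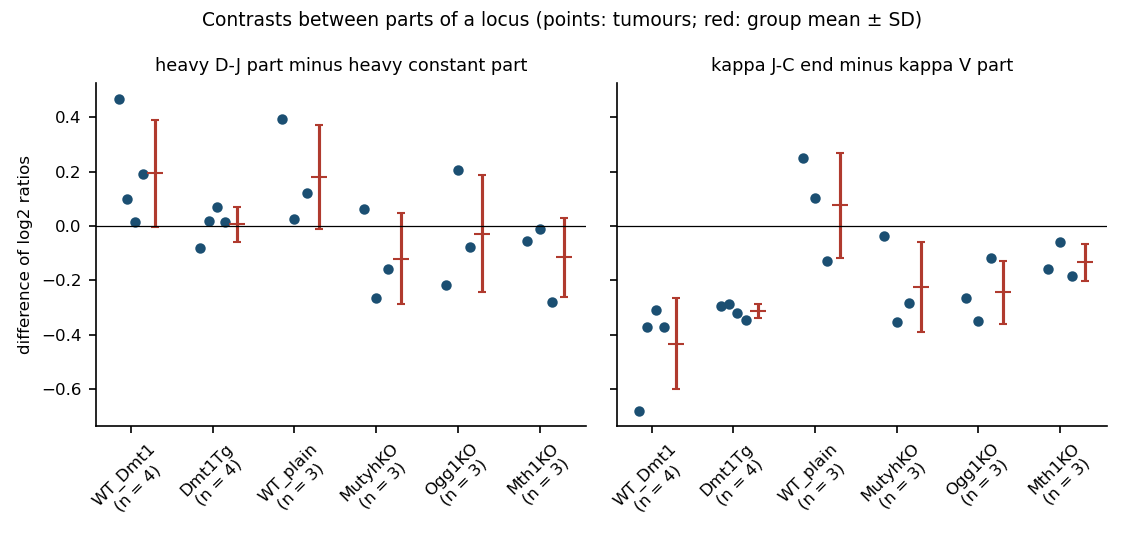
Difference of mean log2 ratios between parts of a locus (vertical axis) for each tumour, by group (horizontal axis; red, group mean ± SD). For the heavy locus all 7 wild types lie above 0 and all 3 Mth1KO tumours below; for kappa all groups but WT_plain lie below 0 in every tumour. Patch spots are included.

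The kappa V part averaged 0.15 ± 0.060, above 0 in 20 of 20 tumours, whereas the J-C end averaged -0.083 ± 0.19 and was below 0 in 13. The J-C end was lower than the V part by 0.23 on average (-0.23 ± 0.20), in 18 of 20 tumours (adjusted p = 0.000162, sign-change permutation). The exceptions were WT_plain 1 and WT_plain 2, at 0.25 and 0.10. Without patch spots these were at 0.10 and -0.036, and the difference was -0.24 ± 0.17, below 0 in 19 of 20 (adjusted p = 3.75e-05, sign-change permutation). Without the last of its 6 probes, itself at -0.64 and dim (kidney signal -1.53), the difference was -0.12 ± 0.17, below 0 in 16 tumours (p = 0.00252, sign-change permutation), and -0.13 ± 0.15, below 0 in 17, with patch spots also left out (p = 6e-05, sign-change permutation). It was -0.060 with normexp (adjusted p = 0.077) and -0.060 over well-measured probes (adjusted p = 0.33). On scan day 1 it was -0.37 ± 0.13 (n = 8) and on scan day 2 -0.13 ± 0.18 (n = 12), which differed (adjusted p = 0.00213, exact permutation). Without patch spots scan day 2 was at -0.16 ± 0.14 (adjusted p = 0.00167, exact permutation).

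Without its last probe the kappa J-C end itself was at 0.028 ± 0.16, below 0 in 8 of 20 tumours (p = 0.46, sign-change permutation). Lower ratios were found outside the locus. The 100 kb above its last base, 10 probes toward Rpia and Eif2ak3, averaged -0.56 ± 0.24 and were below 0 in 20 of 20 tumours, from -1.18 in WT_plain 2 to -0.0072 in WT_Dmt1 1. Without patch spots they averaged -0.53 ± 0.18, again below 0 in 20 of 20 and lowest in WT_plain 2 (-0.79). The lowest probe there (chr6:70780054-70780113) was at -1.14 ± 0.75, and at -0.91 ± 0.24 without patch spots. The 2 probes inside the J-C end that were brightest, A_67_P05934539 and A_67_P14177887, were at -0.030 ± 0.26 and 0.21 ± 0.25. The lowest probe means of this stretch were thus outside the locus.

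In the lambda locus, the immunoglobulin genes averaged 0.10 ± 0.094 (17 of 20 tumours above 0) and the olfactory receptor part 0.22 ± 0.090 (20 of 20). The olfactory receptor part was higher by 0.12 ± 0.086, in 19 of 20 tumours, the exception being Dmt1Tg 1, and by 0.13 ± 0.090 without patch spots, again in 19 of 20. This contrast was added after the values were seen and has no test. The immunoglobulin genes were lowest in WT_Dmt1 2 (-0.074) and highest in Ogg1KO 2 (0.25).

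Mean locus ratios were compared between each genotype and the 7 wild types. Wild types averaged 0.12 ± 0.077 for heavy, 0.11 ± 0.063 for kappa and 0.15 ± 0.065 for lambda, and 0.15 ± 0.065, 0.14 ± 0.070 and 0.17 ± 0.086 without patch spots. None of the 12 comparisons passed after adjustment. The smallest p belonged to lambda in Mth1KO (0.25 ± 0.035, n = 3, difference 0.10, p = 0.033 by exact permutation, adjusted p = 0.40), where 2 of 3 tumours exceeded all wild types. Against WT_plain alone, scanned the same day, that difference was 0.047. With patch spots left out it was 0.082 against all wild types (p = 0.20 by exact permutation, adjusted p = 0.77), with 1 of 3 above all wild types, and -0.0025 against WT_plain alone. Of the 12 comparisons of locus minus flanks 0 passed as well (smallest adjusted p = 0.78, 0 at an unadjusted p under 0.05, exact permutation). The largest difference was -0.13 for lambda in Dmt1Tg (p = 0.25, exact permutation). Against wild types of the same scan day all 12 of these differences from the flanks changed sign, with and without patch spots. Lambda in Dmt1Tg was then 0.016 higher, and the knockouts lay lower, from -0.16 to -0.062 (-0.10 to -0.018 without patch spots). The highest was 0.083 for kappa in Dmt1Tg (p = 0.029, exact permutation), the 1 comparison at an unadjusted p under 0.05, and the smallest adjusted p was 0.30. That p is the smallest possible for 4 against 4, and 3 against 3 allow none under 0.1. No comparison within a scan day could thus pass after adjustment. Of the 12 locus ratios, 2 changed sign against wild types of the same day, and 9 with patch spots left out too.

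Single probes were tested with limma across all 170305 probes. No member was called between a genotype and wild type (0 of 365 in each of the 4 contrasts). Over the whole array the share called was as small, at 0.00176% for Dmt1Tg, 0.00411% for MutyhKO, 0.0047% for Ogg1KO and 0.00176% for Mth1KO. At an unadjusted p under 0.05 there were 17, 37, 32 and 37 members (4.66%, 10.1%, 8.77% and 10.1%), against 6.71%, 12%, 11.6% and 11.5% of all probes. Between the wild-type sets, WT_Dmt1 minus WT_plain, 39 members (10.68%) were called, 18 heavy, 16 kappa and 5 lambda, against 14.6% of all probes. Of the 39, 19 were higher and 20 lower in WT_Dmt1. Without patch spots 24 members were called, against 9.68% of all probes. The count was 12 without WT_plain 1, 17 without WT_plain 2 and 25 without WT_Dmt1 3, where 6.47%, 6.02% and 9.46% of all probes were called. Without WT_plain 3, whose absence leaves the patched arrays as the only WT_plain, 8, 8, 11 and 9 members were called in the genotype contrasts, against 2.46%, 2.84%, 3.94% and 3.24% of all probes.

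Bins were tested in the same fit. In the 4 genotype contrasts 0 of 53 locus bins were called by limma, against 0%, 0%, 0.00955% and 0% of all autosomal bins. At an unadjusted p under 0.05 there were 4, 6, 5 and 6 (7.55%, 11.3%, 9.43% and 11.3%), against 8.39%, 12.9%, 13.4% and 16.3% of all bins. Between the wild-type sets 12 of 53 were called (22.6%), against 33.5% of all bins, with 6 called without WT_plain 1 (23.4% of all bins) and 7 without WT_plain 2 (21.5%). Without patch spots 9 were called, against 27.2%. Against wild types of the matching day the genotype counts were 0, 1, 3 and 3, all higher, where 0.00478%, 5.8%, 4.75% and 4.23% of all bins were called. The wild-type bin with the smallest adjusted p spanned the border of the kappa parts (from position 70623984), at -0.050 ± 0.060 in WT_Dmt1 and 0.34 ± 0.13 in WT_plain (difference -0.39 ± 0.080 SE, adjusted p = 0.00128, limma). The lambda bin from 19603020 went the other way, with 0.59 ± 0.090 in WT_Dmt1 and 0.055 ± 0.19 in WT_plain (adjusted p = 0.00144, limma). Both were called without patch spots (adjusted p = 0.00157 and 0.00695, limma). The groups did not overlap in either bin.

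**Figure D4:**
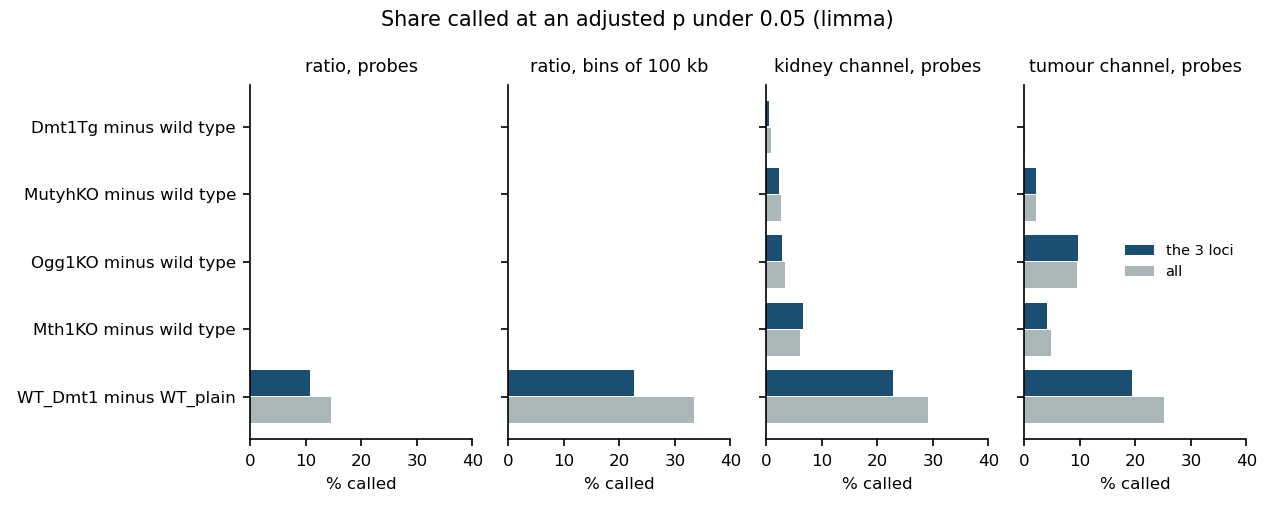
Percent of the members of the 3 loci and of all probes or autosomal bins (horizontal axis) called by limma at an adjusted p under 0.05, for each contrast (vertical axis) and measure. Bars for the genotype contrasts of the ratio are at 0 or too short to see, and the wild-type sets reach 10.68% of members against 14.6% of all probes.

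The probe with the smallest adjusted p between the wild-type sets was A_67_P05930763 in the kappa V part (chr6:68242011-68242070), at -0.40 ± 0.22 in WT_Dmt1 and 0.58 ± 0.12 in WT_plain without overlap (adjusted p = 0.0033, limma, and 0.00351 without patch spots). In the heavy V part A_67_P02611921 (chr12:115719557-115719616) was at -0.32 ± 0.25 and 0.52 ± 0.26 (adjusted p = 0.00749, limma, and 0.0093 without patch spots). A_67_P02610978 in the constant part went the other way, at 0.50 ± 0.20 and -0.12 ± 0.031 (adjusted p = 0.012, limma, and 0.0134 without patch spots). A_67_P14175453 in kappa, at 0.30 and -1.23 (adjusted p = 0.00691, limma), lost its call without patch spots (difference 0.30, adjusted p = 0.33). Of the 9 probes with the widest range over tumours, 8 had patch spots in WT_plain 1 and WT_plain 2. A_67_P07757117 in the heavy V part, for instance, was at -4.73 and -3.68 on those arrays, and between -0.83 and 0.57 on the others.

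A germline difference between the mice that gave the kidney DNA would show in the kidney channel, so each channel was tested on its own. The wild-type sets lie on different slides and scan days. A germline difference between them and an effect of slide or scan day on both channels thus cannot be told apart. The genotype contrasts use the wild types of both scan days, and no same-day comparison was run for the channels. In kidney, 2 members differed between Dmt1Tg and wild type, 8 for MutyhKO, 10 for Ogg1KO and 24 for Mth1KO (limma, adjusted p under 0.05). Over all probes the shares were 0.763%, 2.66%, 3.27% and 6.13%, against 0.548%, 2.19%, 2.74% and 6.58% of members. In the tumour channel 0, 8, 35 and 15 members were called, against 0.0411%, 2.18%, 9.47% and 4.86% of all probes. For Dmt1Tg 49 members (13.4%) had an unadjusted p under 0.05 there (limma), against 15.1% of all probes. Between the wild-type sets 83 members were called in kidney (22.7%) and 71 in the tumour channel (19.5%), against 29.2% and 25.2% of all probes. Of these, 35 were called in both channels, 34 of them in the same direction, and 11 also in the ratio. Over all probes 11.7% were called in both channels, 96.9% of them in the same direction, and 2.78% of all probes were called in the ratio too. Without patch spots 79 members were called in kidney and 52 in the tumour channel, against 25% and 15.7% of all probes. Of these 22 were called in both, all in the same direction, and 3 also in the ratio, against 6.44% and 0.57% of all probes. Of all probes called in both channels, 95.9% went in the same direction there.

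Bins in which kidney and tumour channel of an array deviated together by more than 0.4 from the median over the 20 arrays were counted with patch spots left out. There were 2 of 460 heavy values (0.435%), 5 of 480 kappa values (1.04%) and 0 of 120 lambda values, against 0.65% of all autosomal values. For lambda, counting error alone would allow a share of up to 2.5% if the 120 values were independent. Bins of one array need not be, so the limit may be higher. The 5 kappa values were all low, as were 2422 of the 2724 values that deviated together over all autosomal bins. The bin chr6:69429383-69495382 was down in WT_plain 1 (kidney -0.90, tumour -0.79) and WT_plain 2 (-0.71 and -1.03). The bin chr6:69706250-69780067 was down on the same arrays (-0.82 and -0.42, -0.64 and -0.56), and chr6:69801360-69885223 in Mth1KO 3 (-0.60 and -0.43). In the heavy V part chr12:116137397-116198445 was up in WT_Dmt1 1 (0.43 and 0.61) and chr12:116769174-116789249 down in MutyhKO 2 (-0.85 and -0.58). The WT_plain arrays are those with patches, and their part in the low values beyond the spots left out was not tested.

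B-cell DNA in a tumour would move the loci together, so the locus minus flanks was compared between loci across tumours. Over all 20 tumours Pearson's r was 0.90 for heavy and kappa (Spearman's rho 0.90), 0.90 for heavy and lambda (rho 0.89) and 0.83 for kappa and lambda (rho 0.84), with permutation p-values of at most 3e-05 adjusted over 3 pairs. The scan days separate in these values. Within scan day 1 (n = 8) r was 0.45, 0.21 and 0.036 (rho 0.26, 0.55 and -0.048, adjusted permutation p at least 0.518). Within scan day 2 (n = 12) it was 0.82, 0.86 and 0.80 (rho 0.85, 0.65 and 0.71, adjusted permutation p at most 0.0254), and 0.75, 0.81 and 0.70 without patch spots (rho 0.80, 0.61 and 0.64, adjusted permutation p at most 0.0393). Without the 2 tumours farthest from the median, r over 18 tumours was 0.87, 0.90 and 0.82. The relation was not detected on scan day 1. The SD of all autosomal bins ran from 0.181 to 0.415 on scan day 2 (0.331 the highest without patch spots) and from 0.188 to 0.262 on scan day 1, and its part in the relation was not tested.

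**Figure D5:**
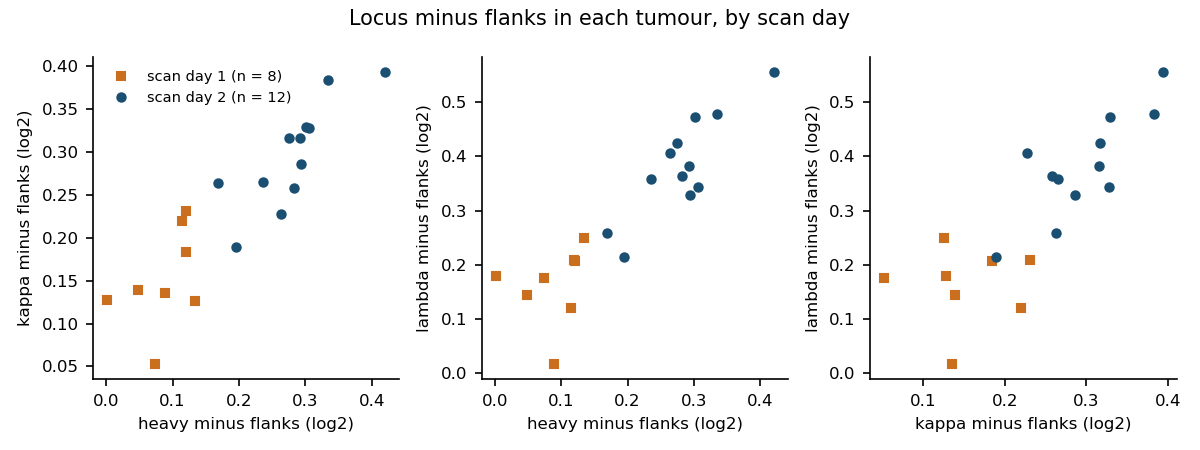
Locus minus flanks (log2) of one locus against another for each tumour, with orange squares for scan day 1 (n = 8) and blue circles for scan day 2 (n = 12). Scan day 2 lies to the upper right in all 3 panels, and within scan day 1 the points show r of 0.45, 0.21 and 0.036.

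For comparison, 8 of 16 B-cell genes that do not rearrange had a probe. The B-lineage transcription factors Pax5 and Ebf1 averaged 0.12 ± 0.19 and 0.072 ± 0.064 over 17 and 36 probes, and the adaptor gene Blnk -0.054 ± 0.20 over 7. Without patch spots Pax5 was at 0.16 ± 0.12 and Blnk at -0.021 ± 0.13. Tcf3, another B-lineage transcription factor, was at -0.64 ± 0.32 over 3 probes and below 0 in all 20 tumours. The T-cell receptor loci rearrange in T cells and served as a second comparison. The alpha locus averaged 0.096 ± 0.13, the beta locus 0.060 ± 0.16 and the gamma locus 0.18 ± 0.11. MutyhKO 3 was lowest at T-cell receptor beta (-0.51) and alpha (-0.38), while its heavy, kappa and lambda loci were at 0.24, 0.19 and 0.29.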

How the data were processed

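Genomic DNA of 20 tumours was hybridised with kidney DNA on Agilent mouse arrays of 174305 spots. The deposited scanner files give processed intensity per spot and channel and a log10 ratio, with outlier flags, written by Agilent Feature Extraction 10.7.1.1 (protocol CGH_107_Sep09, build mm9) per the file headers; the submitters' processing notes name version 10.7. The series' deposited value table holds the log2 ratio of the same spots (174303 per array, within 6.29e-07 of the scanner log ratio). The members and lists were chosen with earlier results of these data known.

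From the intensities, log2 of Cy5 over Cy3 was taken, control and flagged spots were left out (101 to 685 flagged per array), repeated spots were averaged by probe and the autosomal median was set to 0 on every array. Flanks were 1 Mb on each side. Bins of 100 kb needed 3 probes. All 20 tumours entered 1 limma 3.58.1 fit of 6 groups (R 4.3.3), in which wild type means all 7 wild types, with Benjamini-Hochberg adjustment and a threshold of 0.05. Mean values were compared by 2-sided exact permutation and, against 0, by sign-change permutation (100000 resamples), with scipy 1.17.1. Patch spots had a local median in a window of 21 spots more than 0.5 from that of the array. The limma fit was tested on simulated data. Probes and bins were named by rule: the extreme means and widest ranges of each locus and the smallest adjusted p of each contrast; the kappa edge and the printed sequences were chosen after seeing values. Alternatives were normexp (offset 50), the value table, the mode as centre, well-measured probes, patch spots left out, medians, other flanks, bins and thresholds, quantile normalization, scan day, slide and replicate terms, and each tumour left out; those on GC class, single flanks, single scan days, patch spots left out together with these or with same-day controls, and the kappa end without its last probe were chosen after seeing the data. Same-numbered tumours of different groups did not deviate together (r from -0.287 to 0.232). The number of arrays limits the precision.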

Additional observations from a re-analysis of the deposited data

Results flagged for a closer look

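Of 45 groups of 4 or 7 tumours checked for a tumour far from the others, 4 had one, where chance gives about 1 in 20. The heavy locus minus flanks was 0.049 in Dmt1Tg 2, with the next of the 4 Dmt1Tg tumours at 0.11. The kappa locus minus flanks was 0.052 in WT_Dmt1 3, with the next of that set at 0.13. The heavy D-J part was 0.59 in WT_Dmt1 1 against 0.29 for the next of the 7 wild types (WT_plain 1, 0.26 without patch spots). The kappa J-C end minus V part was -0.68 in WT_Dmt1 1 against -0.37 for the next of its set.

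Differences between the scan days passed an exact permutation test for 5 measures. Scan day 2 was higher by 0.11 for the lambda locus ratio, by 0.19, 0.14 and 0.22 for the heavy, kappa and lambda locus minus flanks, and by 0.24 for the kappa J-C end minus V part. Without patch spots the last 4 of these were 0.18, 0.13, 0.21 and 0.22, and each passed again. Each scan day holds its own wild-type set and its own genotypes.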

How the results depend on the processing

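No comparison of a genotype with wild type passed at the level of loci, flanks or parts under any alternative run (0 of 12, 0 of 12 and 0 of 8 under each, and 0 without each tumour in turn). Against wild types of the same scan day none could pass after adjustment. The smallest possible p there is 0.1 for 3 against 3 and 0.029 for 4 against 4 by exact permutation. The mean locus minus flanks stayed above 0 and past the threshold for all 3 loci under each alternative, but its size varied. With a tumour left out it was 0.19 to 0.21 for heavy, 0.23 to 0.25 for kappa and 0.28 to 0.31 for lambda. Normexp lowered it to 0.096, 0.068 and 0.11. For heavy it was 0.074 against the high flank alone and 0.37 against the low flank alone.

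The heavy D-J minus constant difference over all tumours turned to -0.13 with normexp, -0.040 over well-measured probes and -0.022 on scan day 2 alone, and was 0.0036 to 0.043 with a tumour left out; in Ogg1KO it turned to 0.015 with normexp and 0.022 over well-measured probes. The kappa J-C end minus V part was -0.060 with normexp and -0.060 over well-measured probes, no longer past the threshold, and -0.25 to -0.20 with a tumour left out. The lambda ratio of Mth1KO against wild type was -0.0025 with patch spots left out and only WT_plain as control. Against wild types of the same scan day, with and without patch spots, all 12 differences in locus minus flanks changed sign, lambda in Dmt1Tg to 0.016. Heavy and kappa, heavy and lambda, and kappa and lambda had r of 0.45, 0.21 and 0.036 on scan day 1 alone. The cause was not tested.

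Members called between the wild-type sets were 23 over well-measured probes (17.9% of all) and 24 without patch spots (9.68%), and 12 to 40 with a tumour left out (6.02% to 15.5%); bins were 4 over well-measured probes (38% of all) and 6 to 15 with a tumour left out (21.5% to 37.2%). Bins called for MutyhKO, Ogg1KO and Mth1KO were 1, 3 and 3 against wild types of the same day (5.8%, 4.75% and 4.23% of all). In this design a scan-day term gives the same contrasts, so its equal counts are not a separate check. The Ogg1KO count was 1 over well-measured probes (0.349%), and that of Mth1KO was 1 each with slide as a random block (0.0239%), over well-measured probes (0.133%) and without patch spots (0.0239%). With a tumour left out, member probes called ranged from 0 to 8 for Dmt1Tg and MutyhKO, 0 to 11 for Ogg1KO and 0 to 9 for Mth1KO, all highest without WT_plain 3 (2.46%, 2.84%, 3.94% and 3.24% of all). Member bins ranged from 0 to 2 for Ogg1KO and 0 to 3 for Mth1KO (5.81% and 7.65% without WT_plain 3). In the kidney channel quantile normalization gave 0, 0, 3 and 5 members for Dmt1Tg, MutyhKO, Ogg1KO and Mth1KO (0.498%, 0.282%, 0.397% and 1.09% of all), and leaving out patch spots gave 1 for Dmt1Tg (0.698%). At a threshold of 0.1 and 0.3 the share of high bins was 60.6% and 20.2%.

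Replicate numbers did not pair the tumours, since 5 of 20 correlated best with their own number. With the replicate block 0 locus, flank or part comparisons passed, 0 member probes were called for a genotype (at most 0.00294% of all), and 30 probes and 10 bins differed between the wild-type sets (12.2% and 31.3% of all).

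Signal over background limits these values: 47.1% of member probes were well above background in kidney on all arrays, the kappa J-C end has 6 probes and the D-J part 11, and groups hold 3 or 4 tumours. A loss in a small share of the cells may not be detectable.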
